A study of Mus musculus with 12 samples.

Results

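The 54 small nucleolar RNAs (snoRNAs) and Cajal body RNAs described here were the genes among 19938 whose symbol starts with Snord, Snora or Scarna. Each came from a probe set that the array's annotation maps to exactly 1 symbol, and where a symbol had several, the brightest by its average across the 12 arrays was used. There were 31 C/D box RNAs (Snord), 20 H/ACA box RNAs (Snora) and 3 Cajal body RNAs (Scarna8, Scarna13 and Scarna17), from 60 probe sets. A further 41 probe sets that share a snoRNA symbol with other symbols, 24 of them Snord116, are not included.

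C/D box snoRNAs pair with ribosomal RNA and guide methylation of the ribose by fibrillarin, while H/ACA box snoRNAs guide the change of uridine to pseudouridine by dyskerin. Cajal body RNAs carry the same boxes and guide the modification of spliceosomal RNAs. In mammals most of these RNAs are cut from introns of other genes, many of them genes of ribosomal proteins or of translation factors, so that a snoRNA and the messenger RNA around it begin as 1 transcript and then have separate fates. Ribosome production is high in dividing intestinal crypt cells and in adenomas.

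The arrays measured total RNA of laser-dissected epithelium, taken on stained slides either from intestinal tumors or from tissue next to them. All mice were C57BL6/J males with the APCmin/+ allele, which gives intestinal adenomas, and were kept to 25 weeks of age or to an earlier endpoint of weight loss. FSPCre-PPARB -/- mice, called KO here after their label, carry Cre under the fibroblast-specific protein promoter, which is named for fibroblasts and not for the epithelium that was dissected, and lack Ppard, the gene of the nuclear receptor PPAR-beta/delta, where that Cre acts. Their PPARB flox/flox littermates, called floxed, are the controls. The labels gave 3 KO and 3 floxed arrays of tumor epithelium and 2 KO and 2 floxed arrays of adjacent epithelium. They contradict themselves on the genotype of the other 2 adjacent arrays. The title of conflict array 1 says KO and its genotype characteristic floxed, conflict array 2 has these swapped, and neither entered a comparison of genotypes. No label ties an array to an animal, so p-values measure the spread between arrays, which may be technical.

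Several facts of the whole series touch every result below. Floxed tumor arrays 1 and 2 and both floxed adjacent arrays had weak signal, defined as a median correlation with the other arrays under 0.7 over all probe sets (0.507 to 0.611, against 0.818 to 0.852 for the other 8 arrays). The SD of the 54 members within an array was 0.954 to 1.21 on these 4 arrays and 1.97 to 2.09 on the other 8. The mean of 10 epithelium markers was 4.94 to 5.90 on the weak arrays and 6.14 to 7.97 on the others. The mean of 7 fibroblast markers did not overlap between genotypes, at 4.28 to 4.70 on floxed and 4.93 to 5.18 on KO tumor arrays, and 4.72 to 4.97 on floxed and 5.37 to 5.44 on KO adjacent arrays. Of these markers Col3a1 was called higher in KO tumor (1.21, limma adjusted p = 0.0478) and Dcn in KO adjacent epithelium (1.53, limma adjusted p = 0.0315). In each tissue 6 of the 7 differed by more than 0, and Lum ran the other way (−0.87 in tumor and −1.13 in adjacent epithelium, neither passed). The part of these markers in the members' differences was not tested. All 4 weak arrays are labelled floxed, so weak signal and genotype cannot be told apart in adjacent epithelium, and only floxed tumor array 3 stands for the floxed label without it. Ppard itself had levels of 4.95, 4.48 and 5.79 on the floxed tumor arrays and 6.06, 6.07 and 6.5 on the KO tumor arrays, and its difference did not pass (1.14 ± 0.33 SE, limma adjusted p = 0.0991). The probe set therefore does not check the genotype labels, and KO and floxed stand for arrays so labelled throughout.

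Levels are the deposited log2 values, differences are log2 differences from limma with their standard error, and a member is called when its p-value, Benjamini-Hochberg adjusted over all 19938 genes, is under 0.05. Levels of different probe sets are not compared with each other, since probes differ in brightness. In bulk samples, fewer cells of a type and less RNA per cell cannot be told apart.

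In tumor epithelium, 4 members were higher and 1 was lower in KO than in floxed. The higher ones were Snord42a, Snord42b, Snora62 and Snora7a, and the lower one was Snord73a. Over all genes, 0.682% were called higher and 0.396% lower. All 3 KO arrays lay above all 3 floxed arrays for 13 members and below them for 13, where 13.2% and 13.9% of all genes did so. By class, 6 C/D box members lay above and 11 below, 6 H/ACA box members above and 2 below, and 1 Cajal body RNA above. The median difference was −0.44 for C/D box, 0.36 for H/ACA box and −0.01 for Cajal body members, beside −0.01 for all genes. These medians rest on single floxed arrays, since they were −0.08, 0.60 and 1.18 without floxed tumor array 3, −0.57, −0.11 and 0.60 without floxed tumor array 2, and −0.67, 0.36 and −0.30 without floxed tumor array 1.

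Snord42a, a C/D box RNA within Rpl23a, had the largest difference. It read 3.57, 4.03 and 4.18 on the floxed tumor arrays and 10.62, 9.87 and 10.05 on the KO tumor arrays. The groups were far apart, with every KO array over 5 log2 units above every floxed array. The difference was 6.26 ± 0.27 (SE), with an adjusted p of 3.25e-06.

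Snord42b lies in the same gene as Snord42a. Its levels were 3.90, 4.29 and 4.90 on floxed and 8.27, 7.70 and 7.47 on KO tumor arrays, a difference of 3.45 ± 0.36 (limma adjusted p = 0.00415). Snora62, an H/ACA box RNA within Rpsa, read 4.95, 5.10 and 5.95 on floxed and 9.44, 9.47 and 8.85 on KO arrays, a difference of 3.92 ± 0.36 (limma adjusted p = 0.00225). Both were high on every KO array and low on every floxed array, including floxed tumor array 3, which does not have weak signal.

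Snora7a, an H/ACA box RNA within Rpl32, read 4.22, 3.94 and 5.31 on floxed and 7.50, 7.04 and 6.83 on KO tumor arrays. Its groups did not overlap, and the difference of 2.63 ± 0.47 passed narrowly (limma adjusted p = 0.041). Snord73a, a C/D box RNA within Rps3a1, ran the other way, at 5.06, 5.57 and 4.00 on floxed and 3.03, 3.07 and 2.85 on KO arrays. It fell by 1.89 ± 0.37 (limma adjusted p = 0.0466), and the highest of its floxed values came from a weak-signal array. Its average over the 12 arrays (3.80) was among the dimmest 30% of genes. Snora7a and Snord73a lost their call in 12 and 14 of the alternative settings tried, while Snord42a, Snord42b and Snora62 lost theirs in 1, the reading of the conflicting labels by title (limma adjusted p = 0.187 for each).

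**Figure D1:**
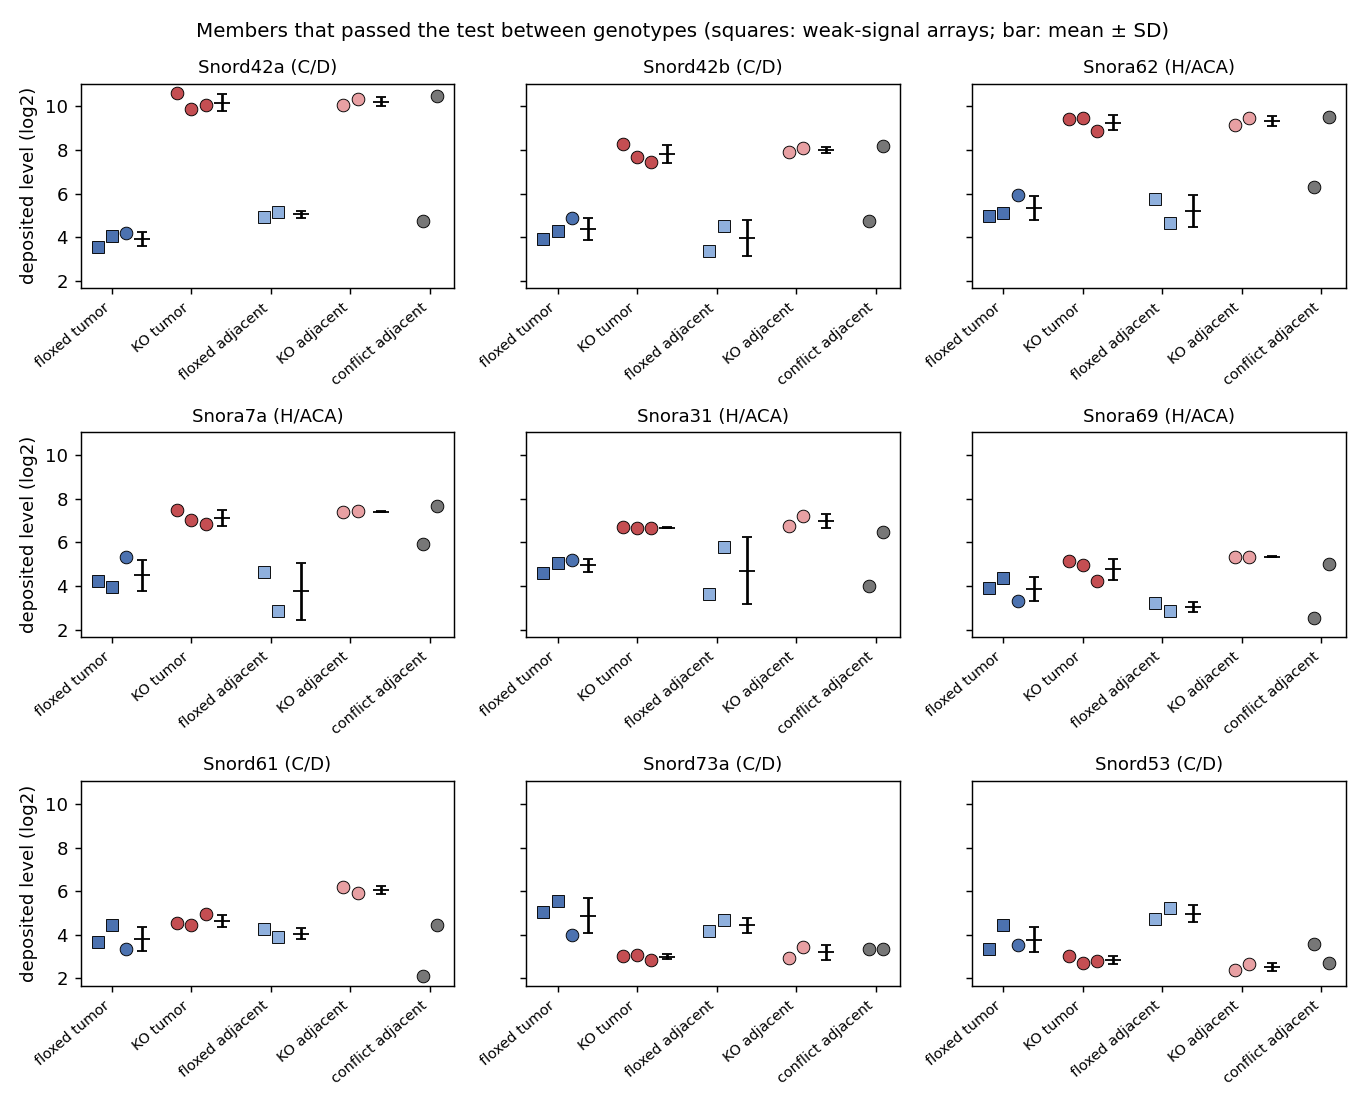
Deposited log2 level (y axis) of the 9 members called between genotypes in either tissue, by group (x axis). Each point is 1 array, squares are weak-signal arrays, and the bar beside each group is its mean ± SD (none for the conflict arrays). Snord42a lies between 3.57 and 5.15 on the 5 floxed arrays and between 9.87 and 10.62 on the 5 KO arrays, with the conflict arrays at 4.73 and 10.49.

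Other large differences in tumor epithelium did not pass. Snora44, an H/ACA box RNA within the noncoding host Snhg12, differed by 3.23 ± 0.95 (limma adjusted p = 0.101). Its floxed levels were 5.62, 3.74 and 8.75, so floxed tumor array 3 lay close to the KO arrays at 9.40, 9.47 and 8.92. Snord87 differed by −2.71 ± 0.64 (limma adjusted p = 0.0688), with floxed levels of 4.18, 7.19 and 5.29 and KO levels of 3.11, 2.76 and 2.68. The largest negative differences among H/ACA box members were those of Snora75 (−1.10) and Snora20 (−0.87). Among Cajal body RNAs, Scarna13 differed by 1.91 (limma adjusted p = 0.109), Scarna8 by −0.01 and Scarna17 by −0.17.

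Deviations from the group mean correlated at 0.105, 0.121 and 0.347 between KO and floxed tumor arrays of the same title number. KO tumor array 1 and floxed tumor array 2, of different numbers, reached 0.246, so a pairing by number is not established. With the replicate number as a block, 11 members were called, 7 higher and 4 lower, among 2.15% of all genes higher and 1.77% lower. All 5 members called without the block were among them. The other 6 were Snora31, Snora74a and Snord8, which were higher in KO, and Snord37, Snord58b and Snord87, which were lower.

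The weak-signal arrays changed the picture for the remaining members. Against floxed tumor array 3 alone, with the spread taken from the KO arrays, 36 members were called, 12 higher and 24 lower in KO, and the 5 above were among them. That comparison called 9.47% of all genes higher and 9.92% lower, and it rests on 1 floxed array, which is assumed to vary as the KO arrays do. The median difference over members was −0.57, with −0.70 for C/D box, −0.23 for H/ACA box and 0.33 for Cajal body members, beside 0.02 for all genes. The largest negative differences were those of Snord104 (−3.32), Scarna17 (−2.87), Snora75 (−2.87) and Snord22 (−2.75). For several members the sign depended on which floxed arrays were used. Snora73a and Snora73b, copies of U17, which acts in processing ribosomal RNA, differed by −1.72 and −1.79 here but by 0.24 and 0.41 with all 3 floxed arrays. Snord118, known as U8, which acts in the same process, differed by −1.39 here and by 1.06 with all 3. In adjacent epithelium these 3 differed by 2.15, 1.87 and 2.18, and none passed there or with all 3 floxed tumor arrays.

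Snord104 shows how far 1 array sets these values. Its level was 9.01 on floxed tumor array 3 but 4.21 and 4.99 on the weak floxed tumor arrays, so that the KO levels of 6.67, 5.32 and 5.09 lay below the first and above the other 2. With all 3 floxed arrays its difference was −0.38 ± 0.99 (limma adjusted p = 0.847). Scarna17 was similar, at 10.62 on floxed tumor array 3, 7.08 and 6.07 on the weak arrays, and 7.81, 7.26 and 8.19 on KO arrays. Snora73a and Snora73b, whose near-identical sequences may share probes, were at 8.57 and 8.59 on floxed tumor array 3.

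**Figure D2:**
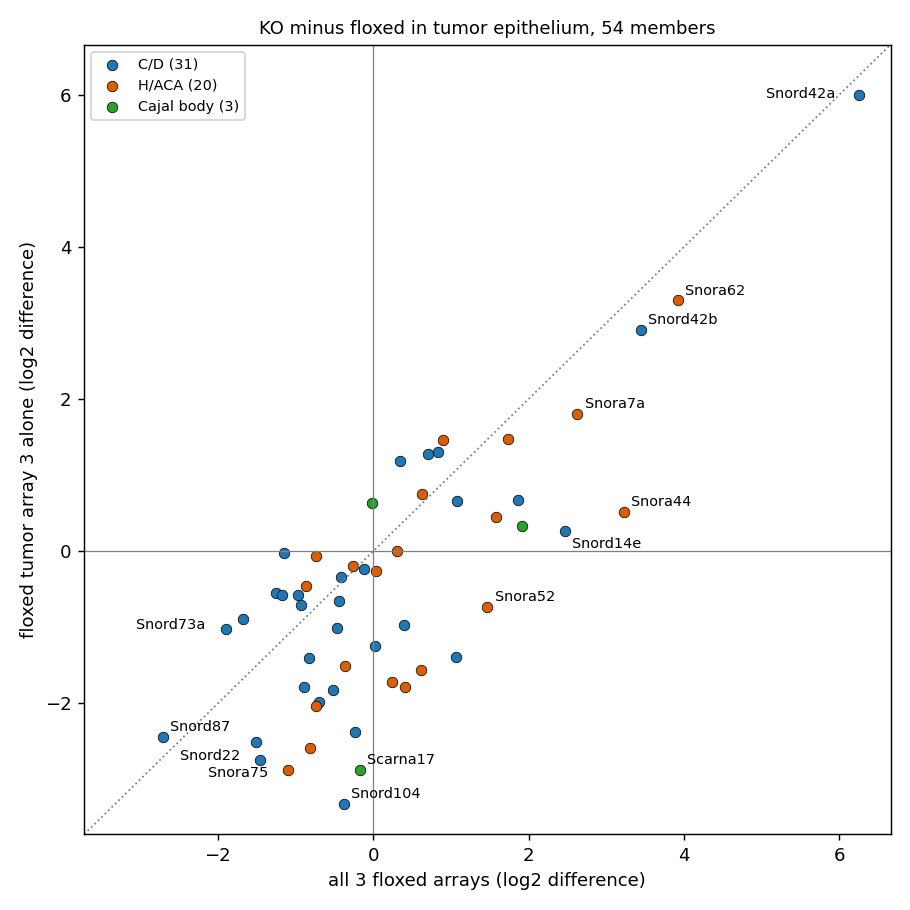
KO minus floxed in tumor epithelium for the 54 members, with all 3 floxed arrays (x axis) and with floxed tumor array 3 alone (y axis), both as log2 differences and coloured by class. The dotted line marks equal values. Snord42a lies near it (6.26 and 6.0), while Snord104 lies at −0.38 and −3.32.

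**Figure D3:**
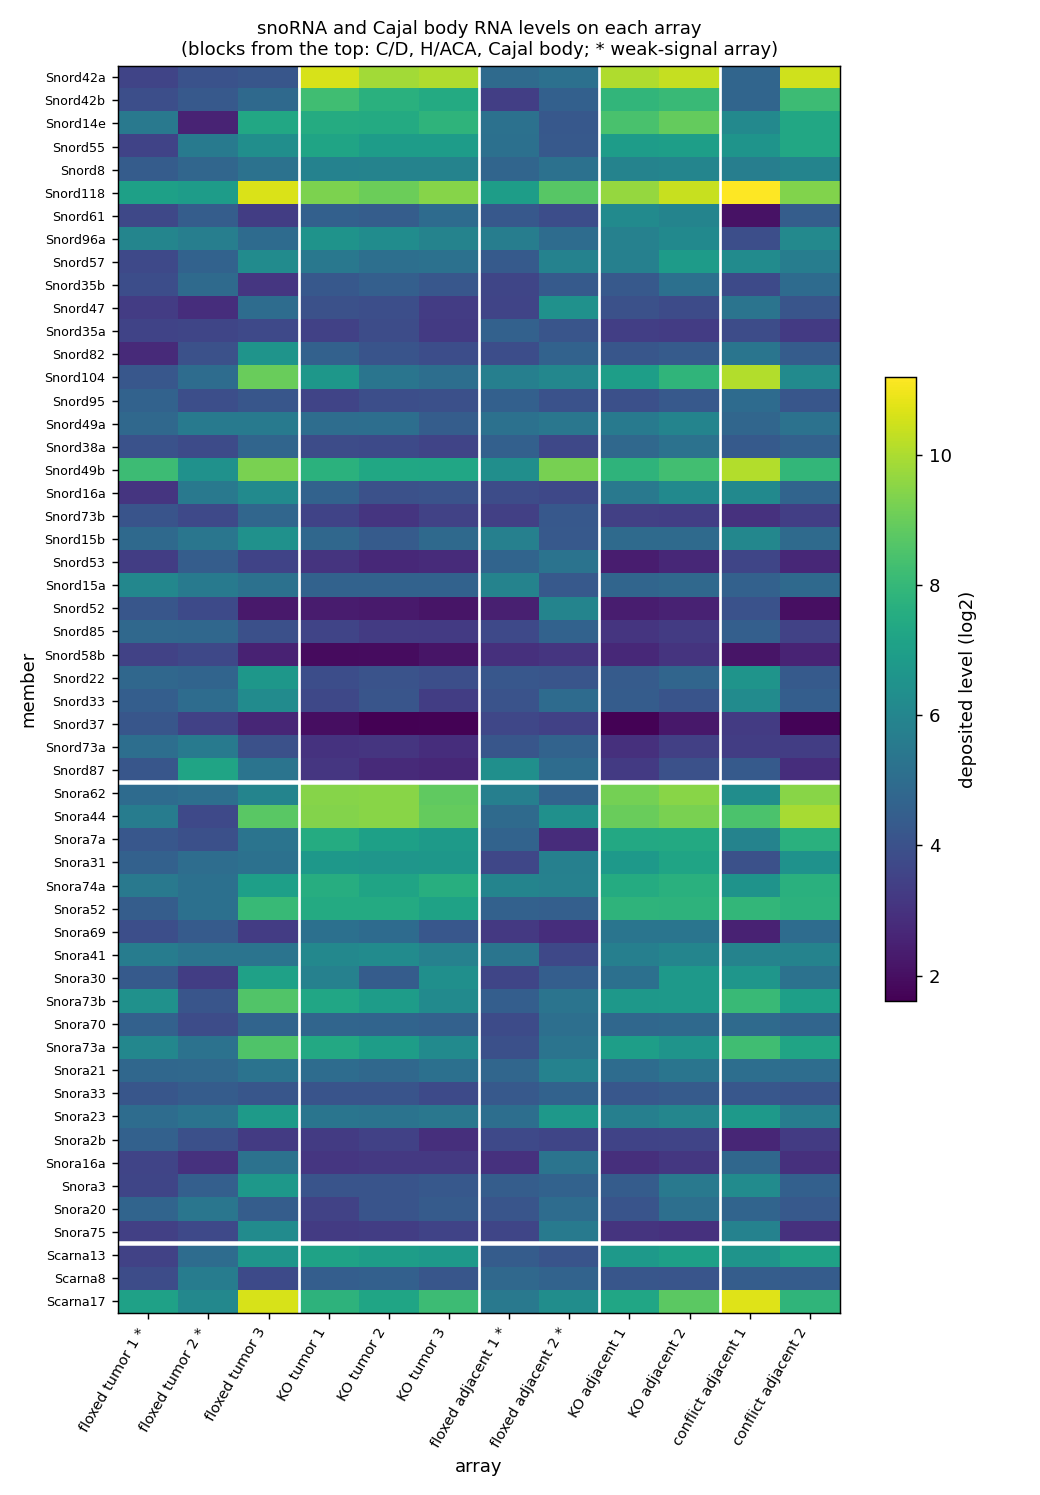
Deposited log2 level (colour) of the 54 members (rows, in blocks of C/D box, H/ACA box and Cajal body RNAs, each in order of the difference in tumor epithelium) on the 12 arrays (columns). Stars mark the 4 weak-signal arrays, on which the members' SD is 0.954 to 1.21, against 1.97 to 2.09 on the others.

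In adjacent epithelium, 7 members were higher and 1 was lower in KO than in floxed, among 2.91% of all genes called higher and 3.15% lower. Both floxed arrays there have weak signal. The KO arrays lay above the floxed arrays for 26 members and below for 10, where 32.1% and 35% of all genes did so. The median difference was 0.29 for C/D box, 1.54 for H/ACA box and 2.14 for Cajal body members, beside −0.04 for all genes. With the conflicting labels read by characteristic these medians were −0.16, 0.85 and 0.49, and without KO adjacent array 2 they were 0.07, 1.17 and 1.38.

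The 4 members higher in tumor epithelium were also called higher here. Snord42a read 4.93 and 5.15 on floxed and 10.06 and 10.36 on KO arrays, a difference of 5.17 ± 0.33 (limma adjusted p = 0.000203). Snora62 (4.13 ± 0.44, limma adjusted p = 0.00424), Snord42b (4.04 ± 0.45, limma adjusted p = 0.00432) and Snora7a (3.66 ± 0.58, limma adjusted p = 0.0147) followed. None of the 4 overlapped between groups, where 32.1% of all genes lay above in KO. These are other arrays than the tumor arrays, but the result is not an independent repeat. The fit shares 1 spread per gene over both tissues, and no label says whether the mice differ.

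The other 3 higher members were Snora69, Snora31 and Snord61. Snora69, an H/ACA box RNA within Rpl39, read 3.20 and 2.86 on floxed and 5.34 and 5.35 on KO arrays (2.32 ± 0.40, limma adjusted p = 0.0189). Snora31, within Tpt1, read 3.64 and 5.79 on floxed and 6.75 and 7.22 on KO arrays (2.27 ± 0.55, limma adjusted p = 0.041). Its floxed arrays were over 2 log2 units apart, so its call rests on a wide spread. Snord61, a C/D box RNA within Rbmx, read 4.25 and 3.88 on floxed and 6.20 and 5.94 on KO arrays (2.01 ± 0.37, limma adjusted p = 0.0234).

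Snord53, a C/D box RNA within Wdr43, was the lower one. It read 4.71 and 5.24 on floxed and 2.39 and 2.67 on KO adjacent arrays and fell by 2.44 ± 0.38 (limma adjusted p = 0.0147). Its average over the 12 arrays (3.43) was also among the dimmest 30% of genes. In tumor epithelium its difference was −0.93 (limma adjusted p = 0.126), with floxed levels of 3.34, 4.43 and 3.55. Among members that did not pass, the largest positive differences were those of Snord14e (3.95, limma adjusted p = 0.056), Snora44 (3.47) and Snora52 (3.29), and the largest negative ones those of Snord87 (−2.07), Snord52 (−1.74), Snord37 (−1.61) and Snora75 (−1.57). Snora16a followed Snora75 among H/ACA box members (−1.09). The Cajal body RNAs Scarna13, Scarna17 and Scarna8 differed by 2.67, 2.14 and −0.59 and did not pass. Leaving out KO adjacent array 1 left 2 calls and leaving out KO adjacent array 2 left 1. Of 20 alternatives, Snora31 lost its call in 12 (1.20 without floxed adjacent array 1), Snord61 in 8, Snora7a in 6, Snora69 in 4, Snord42b in 3, Snora62 in 2 and Snord42a in 1, the labels by title, where its difference was 1.53. Snord53 lost its call in 6 of 19.

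The interaction of genotype and tissue was called for 0 members and 0% of all genes by limma (9 members and 1281 genes had an unadjusted p under 0.05), so no member's genotype difference is shown to differ between tissues.

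Within KO, most members read lower in tumor than in adjacent epithelium by sign. With the spread shared over all 10 arrays, 0 members were called by limma among 0.0201% of all genes (5 members and 492 genes had an unadjusted p under 0.05). Tumor arrays lay below adjacent arrays for 23 members and above for 3, where 14.1% and 17.9% of all genes did so. By class, 15 C/D box members lay below and 1 above, 8 H/ACA box members below and 1 above, and 1 Cajal body RNA above. The difference was below 0 for 41 of the 54 members, 26 of 31 C/D box, 14 of 20 H/ACA box and 1 of 3 Cajal body members. The median was −0.22 beside 0.04 for all genes. It was −0.10 without KO adjacent array 2 and −0.35 without KO adjacent array 1, each of which leaves 1 adjacent array. Without KO tumor arrays 1, 2 or 3 it was −0.30, −0.20 and −0.19.

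The 5 KO arrays have no weak signal and vary less, and when fitted alone they gave 5 members lower and 0 higher in tumor, among 1.29% of all genes lower and 0.557% higher. All 5 are C/D box RNAs. Snord61 read 4.56, 4.44 and 4.96 in KO tumor and 6.20 and 5.94 in KO adjacent epithelium (−1.42, limma adjusted p = 0.0148). Snord16a, within Rpl4, read 4.61, 3.97 and 4.07 in tumor and 5.50 and 6.14 in adjacent epithelium (−1.60, limma adjusted p = 0.0251). Neither RNA overlapped between the tissues.

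Snord38a differed by −1.32 (limma adjusted p = 0.0124), Snord14e, within Hspa8, by −1.07 (limma adjusted p = 0.0371) and Snord58b, within Rpl17, by −0.88 (limma adjusted p = 0.0399). Snord104 had a larger difference (−1.72) that did not pass (limma adjusted p = 0.117), with 6.67, 5.32 and 5.09 in tumor and 6.97 and 7.86 in adjacent epithelium. Snord42a, the member with the largest genotype difference, was level between the tissues (−0.03 ± 0.31 with all 10 arrays). The largest positive differences were those of Snord53 (0.32) and Snord96a (0.25) among C/D box members. Among H/ACA box members they were those of Snora75 (0.37) and Snora41 (0.19), and the largest negative ones those of Snora3 (−0.79) and Snora20 (−0.62). Scarna8, Scarna13 and Scarna17 differed by 0.24, 0.03 and −0.28. None of these passed.

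**Figure D4:**
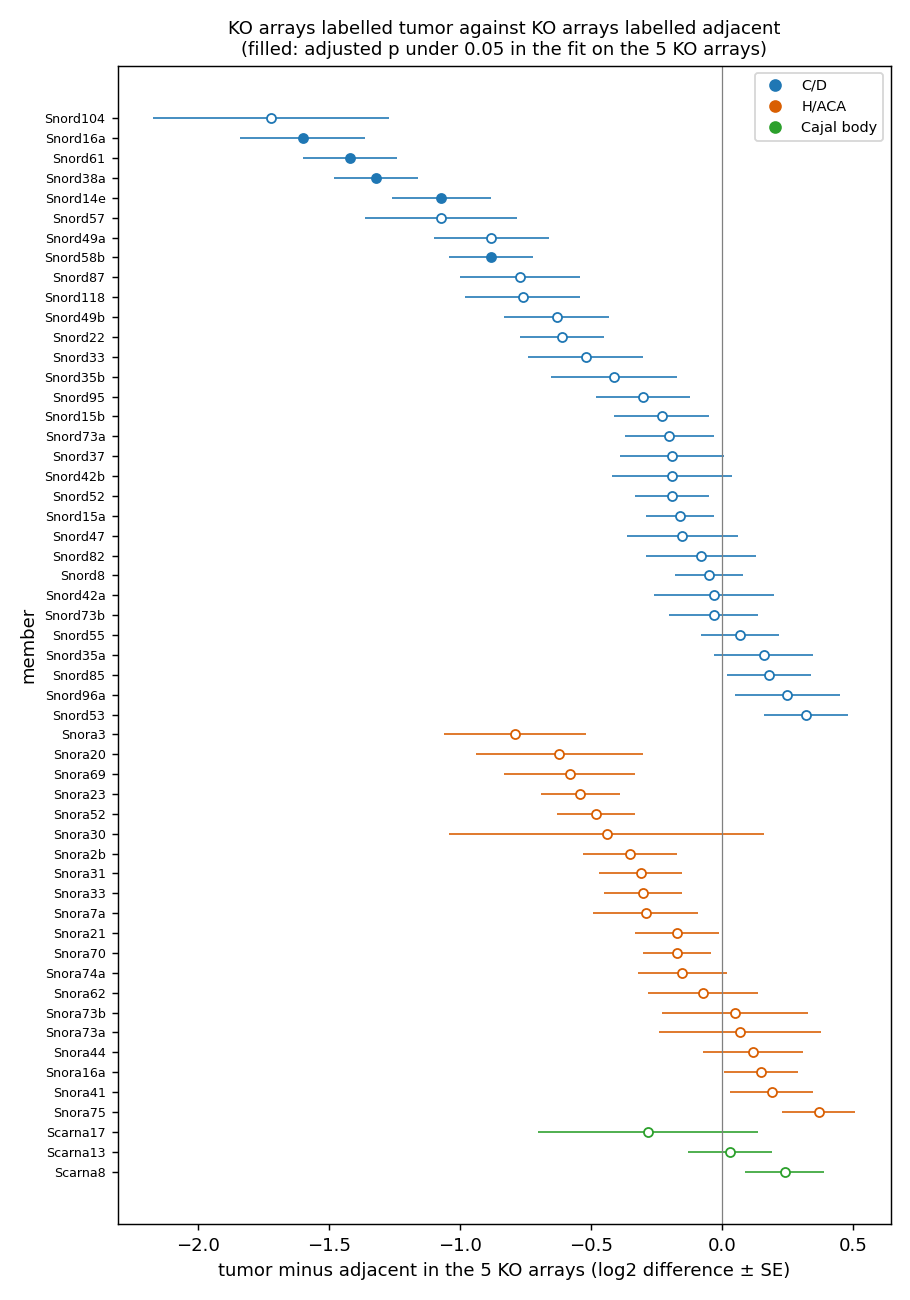
Tumor minus adjacent epithelium for the 54 members in the 5 KO arrays, as log2 difference ± SE (x axis), by class. Filled points passed in the fit on these 5 arrays alone. They are the C/D box RNAs Snord16a, Snord61, Snord38a, Snord14e and Snord58b, and 41 of 54 points lie below 0.

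Within floxed, 0 members were called between the tissues by limma, among 0.00502% of all genes (7 members and 2495 genes had an unadjusted p under 0.05). The difference was above 0 for 36 of the 54 members, with a median of 0.22, opposite in sign to the median in KO. This median rests on single arrays, and all 4 weak-signal arrays are in this comparison. It was −0.02 without floxed tumor array 3 and 0.00 without floxed adjacent array 1. Without floxed tumor array 1, floxed tumor array 2 or floxed adjacent array 2 it was 0.33, 0.27 and 0.44. Over all 12 arrays, where the tissue labels of the conflict arrays agree, 0 members and 0% of all genes were called (1 member and 513 genes had an unadjusted p under 0.05). The median member difference there was −0.16.

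The members varied widely in how steady they were over the 12 arrays. Among C/D box RNAs the SD ran from 0.38 for Snord95 to 3.07 for Snord42a, and among H/ACA box RNAs from 0.21 for Snora33 to 2.08 for Snora44. Scarna8 (0.50) was the steadiest Cajal body RNA and Scarna17 (1.63) the least steady. The annotated lengths had a median of 68 bases for C/D box and 125 bases for H/ACA box RNAs, and the Cajal body RNAs measured 62, 118 and 275 bases.

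RefSeq places 53 of the 54 members inside the span of another gene, and Snord118, which is made from its own promoter, in none. The spanning gene was itself measured for 30 members, as 26 different genes. In tumor epithelium 1 of these 26 was called between genotypes, where 1.08% of all genes were, with a median difference of 0.07 beside −0.01 for all genes. In adjacent epithelium 5 were called, where 6.06% of all genes were, with a median of 1.18 beside −0.04. The tables do not give the strand of a member against the gene that spans it, so a spanning gene is not shown to be its host. For Snord42a, Snord42b and Snora62, the genotype difference of the spanning gene did not pass in either tissue.

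Rpl23a, the ribosomal protein gene around Snord42a and Snord42b, differed by 0.00 ± 0.54 in tumor epithelium (limma adjusted p = 0.997). Its levels were 5.87, 5.75 and 7.79 on floxed and 6.27, 6.96 and 6.19 on KO tumor arrays, so its groups overlapped where those of the snoRNAs were far apart. In adjacent epithelium Rpl23a differed by 1.65 (limma adjusted p = 0.136). Rpsa, around Snora62, differed by 1.36 ± 0.92 in tumor (limma adjusted p = 0.399) and by 2.58 in adjacent epithelium (limma adjusted p = 0.167).

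Gas5, a noncoding RNA that hosts Snord47 among other snoRNAs, showed the reverse. It was higher in KO in both tissues, by 2.59 (limma adjusted p = 0.0445) and 4.65 (limma adjusted p = 0.00715), while Snord47 differed by 0.02 and −1.13 and passed in neither. Tpt1, which encodes a translationally controlled protein, differed by 1.57 in tumor and 3.34 in adjacent epithelium (limma adjusted p = 0.0836 and 0.0147), beside 1.73 and 2.27 for Snora31 within it. Whether a member and its spanning gene differ from each other was not tested.

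**Figure D5:**
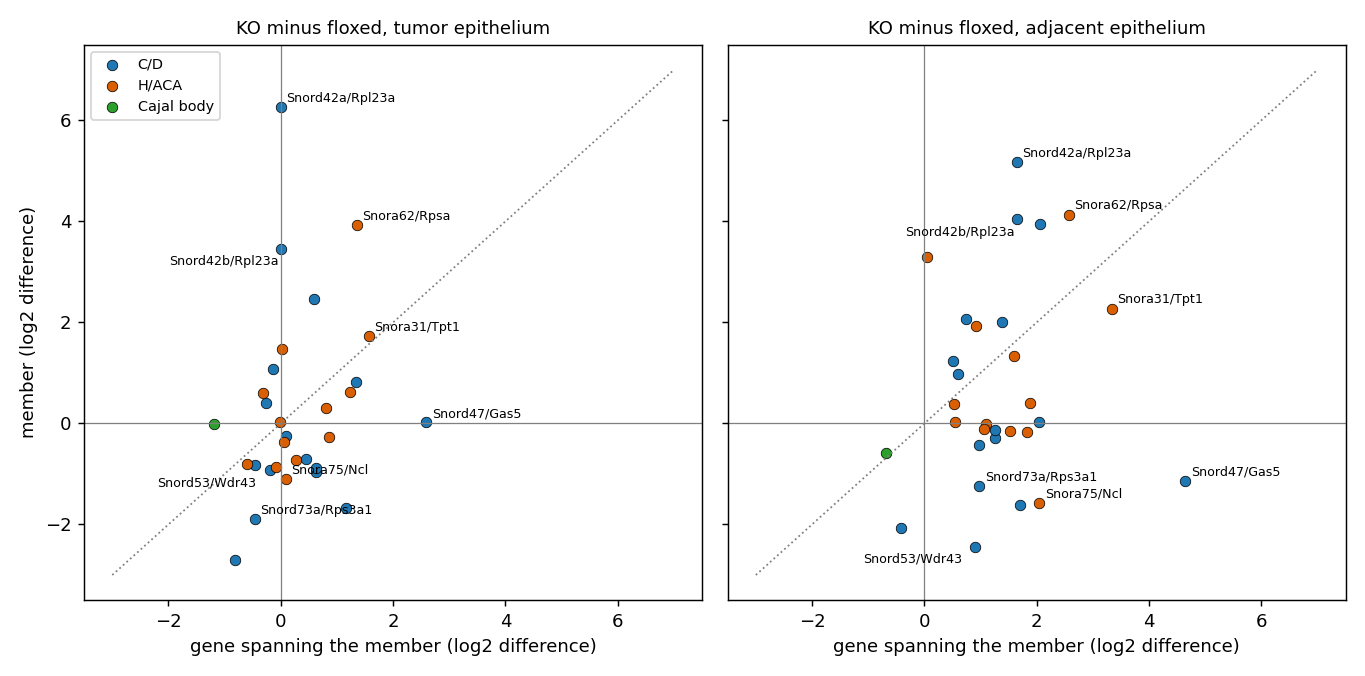
KO minus floxed for 30 member and gene pairs, with the spanning gene on the x axis and the member on the y axis, as log2 differences in tumor (left) and adjacent epithelium (right). The dotted line marks equal differences. Snord42a lies at 6.26 above a Rpl23a difference of 0.00 in tumor epithelium, and Snord47 at 0.02 beside 2.59 for Gas5.

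The promoters of the spanning genes are shown because an intronic snoRNA is made from its host's promoter, where the spanning gene is the host. Of the 8 genes that span the 9 called members, 6 had a promoter entry in RefSeq (GRCm38.p6). The 100 bases before the annotated start follow, 5′ to 3′ on the gene's strand, with capitals for a match on either strand to CCGGAAG (an ETS-type site), TATAAA (the TATA box), CACGTG (an E-box) or CCAAT (the CCAAT box). They are chr9:120127666-120127765 (plus strand) for Rpsa, chrX:37085223-37085322 (minus) for Rpl39, chr3:86142669-86142768 (minus) for Rps3a1, chrX:57393037-57393136 (minus) for Rbmx, chr14:75845156-75845255 (plus) for Tpt1 and chr17:71616115-71616214 (plus) for Wdr43.
Rpsa: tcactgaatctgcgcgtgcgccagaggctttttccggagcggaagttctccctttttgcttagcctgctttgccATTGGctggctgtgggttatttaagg
Rpl39: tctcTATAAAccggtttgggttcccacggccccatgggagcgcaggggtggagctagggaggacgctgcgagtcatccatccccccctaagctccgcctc
Rps3a1: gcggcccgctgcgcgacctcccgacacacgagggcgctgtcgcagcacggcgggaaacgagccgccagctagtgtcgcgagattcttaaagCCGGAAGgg
Rbmx: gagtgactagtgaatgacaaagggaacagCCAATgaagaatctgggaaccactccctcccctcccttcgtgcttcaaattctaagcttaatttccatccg
Tpt1: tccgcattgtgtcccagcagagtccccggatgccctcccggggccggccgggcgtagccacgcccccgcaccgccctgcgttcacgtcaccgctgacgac
Wdr43: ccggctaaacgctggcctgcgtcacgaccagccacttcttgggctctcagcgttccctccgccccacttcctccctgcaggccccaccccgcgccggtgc

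Rpsa and Rbmx, around Snora62 and Snord61, hold CCAAT, as do 18.9% of 32851 promoter windows of this length. Rps3a1, around Snord73a, holds CCGGAAG (4.52% of windows), and Rpl39, around Snora69, holds TATAAA (5.56%). CACGTG is in 3.17% of windows and in none of these 6. The motifs were chosen after the sequences were seen, and a match describes letters only.

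Proteins that build and carry these RNAs were measured as 41 genes from lists of core proteins, assembly factors, Cajal body proteins, and cap, export and end-processing factors. In tumor epithelium 1 was called higher in KO and 0 lower, where 0.682% and 0.396% of all genes were. It was Gemin7, of the SMN complex (1.55, limma adjusted p = 0.0458). In adjacent epithelium 5 were higher and 0 lower, where 2.91% and 3.15% of all genes were. These were Fbl, the methyltransferase fibrillarin (2.00, limma adjusted p = 0.0147), Snu13, which binds the C/D box (1.61, limma adjusted p = 0.0272), Gar1 of the H/ACA core (1.52, limma adjusted p = 0.0197), Taf9 (1.49, limma adjusted p = 0.0262) and Gemin7 (1.52, limma adjusted p = 0.0367).

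The other core proteins did not pass between genotypes in either tissue. In tumor epithelium Nop56 differed by −0.27, Nop58 by −0.30, Dkc1 (dyskerin) by −0.64, Nhp2 by 0.83 and Nop10 by −0.74. Coil, the coilin of Cajal bodies, differed by −0.15 and Wrap53, which brings RNAs there, by 0.40. Phax, an export adaptor, differed by 0.84, and Tgs1, a methyltransferase that acts on RNA caps, by −0.19.

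Between the tissues of KO mice, 35 of the 41 were lower in tumor by sign, with a median of −0.24 beside 0.04 for all genes, and 0 passed with all 10 arrays. In the fit on the 5 KO arrays 4 were called lower in tumor and 0 higher, where 1.29% and 0.557% of all genes were. Fbl fell by 1.36 (limma adjusted p = 0.0293), Nop58 by 1.39 (limma adjusted p = 0.0391), Snu13 by 0.70 (limma adjusted p = 0.0403) and Nop10 by 1.36 (limma adjusted p = 0.0293). The first 3 are core proteins of C/D box particles. Among markers of cell types, the epithelium marker Krt18 (−1.74, limma adjusted p = 0.0202) and the fibroblast marker Dcn (−1.23, limma adjusted p = 0.0256) were also lower in KO tumor in that fit, and the epithelium marker Vil1 was higher (0.98, limma adjusted p = 0.0489). The part of cell makeup in these differences was not tested.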

How the data were processed

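RNA was processed with the GeneChip WT Pico Kit and carried biotin, per the labels' protocols. The authors deposited 1 column of log2 expression values per array, for 12 arrays. The submitters' processing notes name Partek and RMA (robust multi-array averaging) without versions. The build and further filters are not given in the sources used here. Of 35556 probe sets, 21789 had 1 symbol, 1621 had several and 12146 were unnamed here. Lengths, spanning genes and promoters came from RefSeq (GRCm38.p6), which matched all 54 members.

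The 10 arrays with agreeing labels were fitted in 4 groups with limma 3.58.1 (lmFit and eBayes, two-sided) in R 4.3.3, and tumor against adjacent over 12 arrays separately. Steps were tested on simulated data. Members, gene lists and tests were chosen with earlier results of these data known. Named are all called members, all Cajal body RNAs, the highest and lowest SD per class, and core pathway genes. The 2 largest differences of each sign per class are named for both genotype comparisons and for the tissues of KO. Members in the text beyond these, such as Snora73a, were chosen after their values were seen.

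Title numbers were treated as pairing the tumor arrays, since deviations of same-numbered arrays correlated at 0.105, 0.121 and 0.347 across genes, although floxed tumor array 2 correlated better with KO tumor array 1 (0.246). KO and floxed adjacent arrays with the same number correlated at 0.00986 and those with different numbers at −0.00986. With 2 arrays per group these values can differ only in sign. Of the members, 6 had a second probe set, and those of Scarna17, Snora30 and Snord118 gave the same mean and differences to 2 decimals. Snora3 (−0.81 used and −0.64 other in tumor epithelium) and Snord58b (−1.25 and −1.39) kept their sign. Snora21 changed sign in adjacent epithelium (−0.14 used and 0.17 other). Array number limits the precision.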

Additional observations from a re-analysis of the deposited data

Results flagged for a closer look

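The arrays with contradictory genotype labels entered no genotype comparison, and several called members lay above the highest floxed array on them. On conflict array 2, labelled floxed by title and KO by characteristic, Snord42a read 10.49 (highest floxed 5.15, lowest KO 9.87), Snord42b 8.18 (4.90 and 7.47), Snora62 9.50 (5.95 and 8.85), Snora7a 7.69 (5.31 and 6.83), Snora31 6.49 (5.79 and 6.65), Snora69 5.0 (4.35 and 4.21) and Snord61 4.45 (4.43 and 4.44). On conflict array 1, labelled the other way, Snora62 read 6.30 and Snora7a 5.91, both above the highest floxed value and below the lowest KO value. Over the 54 members, the correlation of conflict array 2 was 0.962 to 0.988 with KO arrays and 0.635 with floxed tumor array 3. For conflict array 1 it was 0.945 with floxed tumor array 3 and 0.598 to 0.654 with KO arrays. Over all probe sets, conflict array 2 correlated at 0.956 to 0.973 with KO arrays and 0.818 with floxed tumor array 3. There conflict array 1 correlated at 0.9 with floxed tumor array 3 and 0.822 to 0.852 with KO arrays. These values describe the arrays and assign neither a genotype.

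Among tumor arrays, Snord22 was lower on every KO than on every floxed array, as were 13.9% of all genes. Among adjacent arrays, it was higher on every KO than on every floxed array, as were 32.1% of all genes. Both floxed adjacent arrays have weak signal. Its difference was −1.46 ± 0.45 (SE) in tumor epithelium (limma adjusted p = 0.107). In adjacent epithelium it was 0.38 ± 0.55 (limma adjusted p = 0.669), and neither passed. The difference between these differences was −1.84, and the interaction did not pass in limma.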

How the results depend on the processing

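No member called in the fit of the 10 arrays changed direction under the alternatives run. Members not called in that fit could change direction. In tumor epithelium Snora52 and Snord118 were called higher in KO without floxed tumor array 3. Against floxed tumor array 3 alone they differed by −0.73 and −1.39. In tumor epithelium the 5 members called became 3 with quantile normalization, with trend and robust variance and with only the arrays compared, 19 with array weights, 11 with the replicate block, 36 without weak-signal arrays and 0 with the conflicting labels read by title. Leaving out 1 array gave 3 to 23, the 23 without floxed tumor array 3. Of all genes, 1.08% were called in the fit of the 10 arrays. Their share was 0.0652% with quantile normalization, 0.306% with trend and robust variance and 0.0401% with only the arrays compared. It was 14.6% with array weights, 3.92% with the replicate block, 0% with labels by title and 29.1% without floxed tumor array 3. In adjacent epithelium the 8 became 4 with quantile normalization and 4 with labels read by characteristic. They became 24 with array weights, 21 with only the arrays compared, 15 with the replicate block and 0 with labels by title. Of all genes, 6.06% were called in the fit of the 10 arrays. In these settings, in the order given, the share was 0.642%, 0.241%, 20.2%, 17.2%, 12.3% and 0.00502%. It was 24.6% without floxed tumor array 3. Leaving out 1 array gave 1 to 25, with 25 again without floxed tumor array 3, 17 without floxed tumor array 2, 13 without floxed tumor array 1 and 4 without floxed adjacent array 2. For tumor against adjacent in KO, the 0 became 8 with array weights, where 5.23% of all genes were called. They became 5 with only the arrays compared (1.85% of all genes), which is also the fit without weak-signal arrays. In floxed, leaving out 1 tumor array gave 0 to 1 (Snord53, without floxed tumor array 2, where 1.72% of all genes were called). Over all 12 arrays, array weights gave 1 (Snord38a), among 0.637% of all genes. Without the dimmest 30% of genes, 4 members were higher and 0 lower in KO tumor epithelium, and 6 and 0 in adjacent epithelium. Of the genes left, 0.652% were higher and 0.0502% lower in tumor, and 2.83% and 0.423% in adjacent epithelium. Snord73a and Snord53 are not among the genes left. The C/D box medians were then −0.24 in tumor and 0.76 in adjacent epithelium, while the median of all genes moved to 0.18 and 0.24. The cause was not tested. The replicate block changed no call in the tissue comparisons or the interaction. Without weak-signal arrays no floxed adjacent array is left, so adjacent epithelium, floxed tissue and the interaction have no such fit.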
